A study of Mus musculus with 12 samples.

Results

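Transcripts of 40 genes of phospholipase C signalling and calcium handling were followed in wild-type, Pkd1-/- and Pkd2-/- mouse collecting duct cells. The 40 genes were listed by symbol as members of these families, with no threshold on a measured value although earlier results of these data were known, and each was found by its Ensembl identifier among the 47642 genes of the deposited table. They are 12 phospholipases C, 6 intracellular release channels, 5 genes of store-operated calcium entry, 7 calcium pumps, 2 genes of the mitochondrial uniporter, 7 TRP channels and 1 sodium-calcium exchanger.

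Phospholipase C cleaves a membrane phosphoinositide into diacylglycerol, which activates protein kinase C, and inositol trisphosphate (IP3), which opens IP3 receptors in the endoplasmic reticulum and releases calcium into the cytosol. STIM proteins sense the emptied store and open ORAI channels in the plasma membrane, SERCA pumps refill the store, and plasma membrane pumps and mitochondria remove calcium from the cytosol. Polycystin-1 and the TRP-family channel TRPP2, the products of Pkd1 and Pkd2, are mutated in autosomal dominant polycystic kidney disease and are linked to calcium signalling in renal tubular cells, including at the primary cilium.

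RNA was sequenced from mIMCD3 cells, a line of the mouse inner medullary collecting duct that carries the early region of SV40 in all 3 genotypes. Wild-type cells were compared with 1 Pkd1-/- clone, edited with CRISPR so that nearly the whole gene is deleted, and 1 Pkd2-/- clone, edited with TALENs so that a block of internal exons is deleted. Of the 6 dishes grown per genotype, 4 were sequenced, chosen by the purity ratios of their RNA 4 days after full confluency. The 4 libraries of a mutant are thus dishes of a single clone, their spread does not cover variation between clones, and the effect of a genotype and of its clone cannot be told apart.

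The 12 libraries held 25966273 to 28027792 normalized counts, from an estimated 23188147 to 30322059 reads on genes. Log-scale profiles correlated at r = 0.988 to 0.99 within genotypes and 0.97 to 0.981 between them. Pkd1 fell to 41.8 ± 8.81 normalized counts in Pkd1-/- cells from 782 ± 112 in wild-type cells (SD, n = 4), while Pkd2 held 3986 ± 124 in Pkd2-/- and 3971 ± 451 in wild-type cells; exons outside the deletion still count, so this level does not check the label. In Pkd1-/- cells Pkd2 was lower (2711 ± 133, log2 fold change -0.54), and in Pkd2-/- cells Pkd1 was higher than in wild-type cells (1209 ± 202, log2 fold change 0.62). Of 20 epithelial markers, 14 averaged 10 or more normalized counts, among them Cdh1, Epcam, Krt8, Pax2 and Pax8, and the list summed to 76181 to 84836 in wild-type cells, 72985 to 74979 in Pkd1-/- and 81407 to 84293 in Pkd2-/- libraries, whereas the collecting duct genes Aqp2, Aqp4, Avpr2 and Slc14a2 had at most 3 in every library. Most of that sum was Epcam, Krt18, Cdh1 and other abundant genes, and single markers of the list differed more. Krt19 had 4472 ± 342 in wild-type cells, 1329 ± 61.3 in Pkd1-/- and 1409 ± 31.2 in Pkd2-/- cells, Scnn1g, a subunit of the epithelial sodium channel, 928 ± 51.2, 303 ± 45.4 and 255 ± 9.11, and Gata3 227 ± 34.3, 48.5 ± 5.74 and 354 ± 58.4, and the part of these differences in the results was not tested. A list of 6 muscle and neuron markers summed to 108 to 162 counts in wild-type cells, 68 to 89 in Pkd1-/- and 390 to 537 in Pkd2-/- libraries. Nearly all of that sum was Tubb3, 3 of the 6 genes, Myh1, Actn2 and Snap25, were at 0, and its part in the results for the Pkd2-/- clone was not tested. Markers of fibroblasts and smooth muscle summed to 144 to 175, 152 to 230 and 42 to 165, those of leukocytes to 59 to 73, 47 to 65 and 54 to 69, and those of endothelium to at most 10 in any library.

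The promoters are shown of the 4 members that were differentially expressed in Pkd2-/- cells, Plcb1 and Plcg2, which were lower in both mutants, and Plcb4 and Itpr2, which were higher. Each window runs from 250 bases before to 50 bases after the start of the gene in RefSeq's annotation of GRCm38.p6, and the capitals mark GC boxes, the letters GGGCGG or their complement CCGCCC. Plcb1 (chr2:134785914-134786213, plus strand) and Plcb4 (chr2:135659297-135659596, plus strand) are neighbours on chromosome 2. Plcg2 lies at chr8:117498025-117498324 on the plus strand, and Itpr2 at chr6:146502174-146502473 on the minus strand.
Plcb1: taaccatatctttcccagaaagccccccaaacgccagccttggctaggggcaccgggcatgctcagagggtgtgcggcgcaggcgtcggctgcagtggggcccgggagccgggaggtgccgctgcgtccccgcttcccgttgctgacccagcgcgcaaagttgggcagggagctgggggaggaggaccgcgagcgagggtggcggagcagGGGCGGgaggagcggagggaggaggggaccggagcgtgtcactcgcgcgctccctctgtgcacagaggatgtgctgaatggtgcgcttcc
Plcb4: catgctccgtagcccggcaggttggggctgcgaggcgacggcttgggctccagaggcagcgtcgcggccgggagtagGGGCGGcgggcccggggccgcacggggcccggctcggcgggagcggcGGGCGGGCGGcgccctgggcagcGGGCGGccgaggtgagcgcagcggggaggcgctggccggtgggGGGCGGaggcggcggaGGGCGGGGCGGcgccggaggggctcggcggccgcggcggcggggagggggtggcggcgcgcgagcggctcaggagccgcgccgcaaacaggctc
Plcg2: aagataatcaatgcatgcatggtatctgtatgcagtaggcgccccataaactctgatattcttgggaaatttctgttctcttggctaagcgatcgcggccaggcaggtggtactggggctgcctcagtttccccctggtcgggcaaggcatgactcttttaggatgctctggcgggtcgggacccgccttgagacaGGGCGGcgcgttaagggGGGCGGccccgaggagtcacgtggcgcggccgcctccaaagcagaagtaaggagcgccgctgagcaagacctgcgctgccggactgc
Itpr2: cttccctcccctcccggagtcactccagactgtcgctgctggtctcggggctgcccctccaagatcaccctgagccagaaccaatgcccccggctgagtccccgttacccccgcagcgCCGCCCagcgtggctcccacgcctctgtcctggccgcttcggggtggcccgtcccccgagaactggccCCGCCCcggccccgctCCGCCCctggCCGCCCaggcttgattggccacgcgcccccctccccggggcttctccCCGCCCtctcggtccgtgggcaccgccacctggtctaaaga
The windows held 1 GC box for Plcb1, 7 for Plcb4, 2 for Plcg2 and 5 for Itpr2, with overlapping matches on either strand counted separately. A GC box was present in 35.7% of the 32851 promoters of the same length in the reference and in 29 of the 45 entries of the 36 members that have one; Itpr1, Ryr3, Atp2a2 and Trpm4 do not. Plcb4 has a second entry, which held no GC box. The Plcb4 window had the highest GC content of the 4, 84.0%, against 69.7% for Plcb1, 60.0% for Plcg2 and 73.3% for Itpr2, and 52.7% for the median of all promoters. None of the 4 windows held the letters TATAAA on either strand, which 13.6% of all promoters do. These letters describe the windows and do not locate a factor.

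Over the 12 libraries, 27 of the 40 genes averaged 10 or more normalized counts. In wild-type cells, levels per kilobase of exon (normalized counts per kb) differed widely between genes. Atp2a2, the SERCA pump of most tissues, was at the top with 1414 ± 75.9 per kb, ahead of Micu2, a gatekeeper of the mitochondrial uniporter, with 1022 ± 30.9 (SD, n = 4). Trpv4 followed with 523 ± 15.5 per kb and Plcb3 with 499 ± 19.7, 2 levels that do not differ beyond their spread. The next ranks, held by Orai3 (309 ± 16.7), Mcu (296 ± 5.19), Plcd3 (290.5 ± 21), Orai1 (275 ± 17.9) and Itpr3 (266 ± 20.1), likewise lay within the spread of their neighbours in this order. Further down, Plcg2 (30.3 ± 3.37), Plcb4 (23.3 ± 4.26), Trpc1 (15.4 ± 1.33) and Itpr2 (10.8 ± 1.34) were still measured at over 100 normalized counts on average in wild-type libraries. The members ranked below Itpr2, from Plcd4 (1.6 ± 0.659 per kb) down, averaged at most 11.25 normalized counts in wild-type libraries.

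Of the 40 members, 32 averaged 1 normalized count or more and were tested with limma among 18552 genes on log2(normalized count + 1), a scale that understates changes of low counts. A gene passed at an adjusted p under 0.05 and was called differentially expressed when its log2 fold change was also at least 1 in either direction. In Pkd1-/- cells, 5 members were higher than in wild-type cells and 12 were lower, where 13.6% of all genes tested were higher and 13.5% lower. Of the tested members these are 15.6% and 37.5%, a description with no test. Plcb1, Plcd1 and Plcg2, all lower, were differentially expressed, 9.38% of those tested against a background of 6.24%.

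In Pkd2-/- cells, 8 members were higher than in wild-type cells and 10 were lower, against 20% and 22.3% of all genes. Plcb4 and Itpr2 were differentially expressed upwards and Plcb1 and Plcg2 downwards, 12.5% of the tested members against 9.62% of all genes. Among genes that averaged 10 or more normalized counts, 33.5% of all genes and 63.0% of members passed in Pkd1-/- cells, and 53.0% and 66.7% in Pkd2-/- cells. The median log2 fold change of the members was -0.08 in Pkd1-/- and 0.04 in Pkd2-/- cells, beside 0.01 and -0.01 for all genes tested. The median size of the change, whatever its direction, was 0.30 and 0.32 among members and 0.21 and 0.30 among all genes.

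Both comparisons share the 4 wild-type libraries, so a gene that passed in the same direction in both is not 2 independent results. For 3 members, Plcd3, Itpr2 and Atp2a2, the level was lower than wild-type in Pkd1-/- and higher in Pkd2-/- cells. The direct test between the mutants passed for each, but picking genes on opposite sides of wild-type favours that outcome, so it adds no support. Another 8 members passed as lower in both mutants and 3 as higher in both. The shares of all genes with these patterns are not given here.

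**Figure D1:**
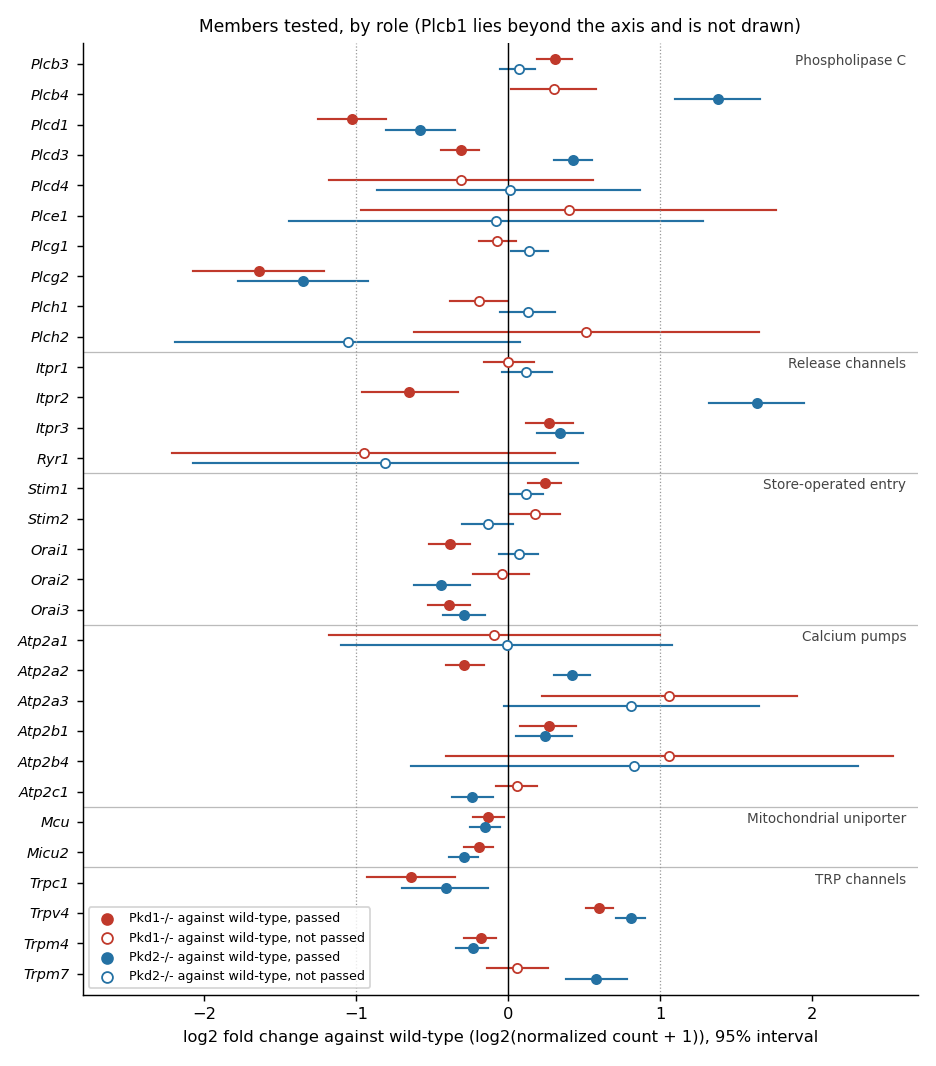
Log2 fold changes of 31 tested members against wild-type (horizontal axis, on log2(normalized count + 1)) with 95% intervals, by role. Red marks Pkd1-/- and blue Pkd2-/- cells, filled points passed at an adjusted p under 0.05, and dotted lines mark a log2 fold change of 1 either way. Plcg2 lies beyond -1 in both mutants and Itpr2 and Plcb4 beyond 1 in Pkd2-/- cells, while Plcb1 is off the scale.

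Among the phospholipases C of the beta class, which act downstream of Gq-coupled receptors, Plcb1 transcripts were nearly lost in both mutants and Plcb4 was higher in Pkd2-/- cells. Plcb1 lies on chromosome 2 of GRCm38 from 134786067 to 135475258. Its normalized counts were 464, 429, 360 and 439 in the wild-type libraries, 1, 1, 0 and 2 in the Pkd1-/- libraries, and 17, 9, 10 and 20 in the Pkd2-/- libraries. The 3 genotypes did not overlap, with Pkd1-/- at the floor of what a library of this depth can show. Taking 3 counts as that floor, Plcb1 was at least 141-fold lower in Pkd1-/- than in wild-type cells (adjusted p = 1.42e-12). In bulk RNA, fewer cells with the transcript and less of it per cell cannot be told apart. Pkd2-/- cells kept 3.31% of the wild-type mean, which is -4.89 ± 0.32 (standard error) as a log2 fold change (adjusted p = 4.19e-10). Between the mutants, Plcb1 was at least 4.67-fold higher in Pkd2-/- than in Pkd1-/- cells by the same floor (adjusted p = 3.57e-07). The floor and the sampling noise of low counts cover counting error only, since no molecular identifiers are described for these libraries.

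Plcb4 starts 184 kb after the end of Plcb1 on the same strand, at 135659011 to 136014593 on chromosome 2. It had 227, 201, 160 and 249 normalized counts in wild-type cells, 198, 262, 282 and 285 in Pkd1-/-, and 546, 472, 529 and 616 in Pkd2-/- libraries. Every Pkd2-/- library was above every library of the other genotypes, whereas Pkd1-/- and wild-type libraries overlapped. The log2 fold change was 1.38 in Pkd2-/- cells (95% interval 1.10 to 1.66, adjusted p = 1.09e-07) and 0.30 in Pkd1-/- cells (0.02 to 0.58, adjusted p = 0.115). The value in Pkd1-/- cells passed without wild-type replicate 4 (0.39) or without Pkd1-/- replicate 1 (0.42). Between the mutants it was 1.08 (adjusted p = 1.94e-06), or 0.96 and so under the fold threshold without Pkd1-/- replicate 1. The 50 tested genes nearest to Plcb1, over 13.0 Mb, had medians of 0.02 in Pkd1-/- and 0.21 in Pkd2-/- cells, and those nearest to Plcb4 0.00 and 0.17. Of the tested genes that follow Plcb4 and averaged 10 or more normalized counts, Mkks and Slx4ip had log2 fold changes of -0.12 and 0.24 in Pkd2-/- cells. Jag1, the next such gene and a Notch ligand, had means of 199 counts in wild-type cells, 128.5 in Pkd1-/- and 1.5 in Pkd2-/- cells. Jag1 was picked out after its values were seen.

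Plcb3, the most abundant phospholipase C per kb, rose from 3476 ± 137 normalized counts in wild-type to 4303 ± 323 in Pkd1-/- cells (SD, n = 4), and the groups did not overlap. Its log2 fold change there was 0.31 (adjusted p = 0.00027), beside a median of 0.25 for the 50 genes around it on chromosome 19, whose part in the result was not tested. Pkd2-/- cells had 3638 ± 145 (0.07, adjusted p = 0.368), below every Pkd1-/- library (-0.24 between the mutants, adjusted p = 0.00122). Plcb3 overlaps Ppp1r14b on the opposite strand, and whether the reads were counted by strand is not given in the sources used here. Plcb2, an isoform best known from blood cells, had a single count in 2 Pkd1-/- libraries and 0 in all others. Within the beta class, Plcb1 contributed 6.80 ± 0.827% of the normalized counts per kb in wild-type cells, 0.0138 ± 0.0107% in Pkd1-/- and 0.214 ± 0.0766% in Pkd2-/- cells, and Plcb4 4.17 ± 0.794%, 4.40 ± 0.428% and 10.3 ± 0.825%. The summed level of the class was 561 ± 15.5 per kb in wild-type cells, 647 ± 50.5 in Pkd1-/- and 584 ± 25.8 in Pkd2-/- cells.

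The gamma isoforms are activated by tyrosine kinases. Plcg2 on chromosome 8 had 140, 133, 139 and 109 normalized counts in wild-type cells, 58, 33, 31 and 47 in Pkd1-/-, and 49, 54, 38 and 63 in Pkd2-/- libraries. All mutant libraries lay below all wild-type libraries, and the mutants overlapped each other. The log2 fold change was -1.64 in Pkd1-/- (95% interval -2.07 to -1.21, adjusted p = 5.02e-06) and -1.35 in Pkd2-/- cells (-1.78 to -0.92, adjusted p = 2.4e-05), and the value between the mutants did not pass (0.29, -0.14 to 0.72, adjusted p = 0.27). The 50 genes around Plcg2 had medians of -0.01 and -0.24. Its widely used relative Plcg1 had 1540 ± 33.6 normalized counts in wild-type cells, 1469 ± 92.7 in Pkd1-/- and 1704 ± 114 in Pkd2-/- cells. Neither comparison of Plcg1 with wild-type passed (-0.07, adjusted p = 0.425, and 0.14, adjusted p = 0.0509), although its Pkd2-/- libraries were all above the wild-type ones and the second value passed without Pkd2-/- replicate 2 (0.165) or 3 (0.172). It overlaps Zhx3 on the opposite strand. Between the mutants Plcg1 differed by 0.21 (adjusted p = 0.00463).

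Delta isoforms are phospholipases C that respond to calcium itself. Plcd1 had 245, 262, 266 and 288 normalized counts in wild-type cells, 141, 114, 138 and 126 in Pkd1-/-, and 189, 150, 193 and 181 in Pkd2-/- libraries, with no overlap between any of the 3 genotypes. It was lower in both mutants, with log2 fold changes of -1.03 in Pkd1-/- (95% interval -1.25 to -0.80, adjusted p = 5.79e-07) and -0.58 in Pkd2-/- cells (-0.80 to -0.35, adjusted p = 0.000237), and higher by 0.45 in Pkd2-/- than in Pkd1-/- cells (adjusted p = 0.00179). The first value was -0.99 without wild-type replicate 4 and -0.97 without Pkd1-/- replicate 2, just under the fold threshold. Plcd3 took opposite sides of wild-type. Its 883 to 1044 normalized counts in wild-type libraries compared with 739 to 828 in Pkd1-/- (-0.31, adjusted p = 0.000584) and 1300 to 1359 in Pkd2-/- libraries (0.43, adjusted p = 1.19e-05), and the mutants differed by 0.74 (adjusted p = 7.4e-09). Plcd4 was near the limit of detection, with 4 to 19 counts in any library and no comparison that passed. It also overlaps the more abundant genes Zfp142 and Usp37 on the opposite strand.

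Plch1, of the eta class, had 862 ± 75.5 normalized counts in wild-type cells, 752 ± 44.1 in Pkd1-/- and 947 ± 133 in Pkd2-/- cells. It passed between the mutants (0.32, adjusted p = 0.00444) but not against wild-type (-0.19, adjusted p = 0.11, and 0.13, adjusted p = 0.254). Plch2 ranged from 0 to 13 counts and passed between the mutants (-1.57, adjusted p = 0.023), a call lost without Pkd1-/- replicate 2 (-1.44, adjusted p = 0.063) or Pkd2-/- replicate 1 (-0.94, adjusted p = 0.09). Against wild-type it did not pass in Pkd2-/- cells (-1.05, adjusted p = 0.132), though it did without Pkd2-/- replicate 4 (-1.48, adjusted p = 0.0327). Plce1, which Ras family proteins activate, had 0 to 11 counts and passed in no comparison.

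**Figure D2:**
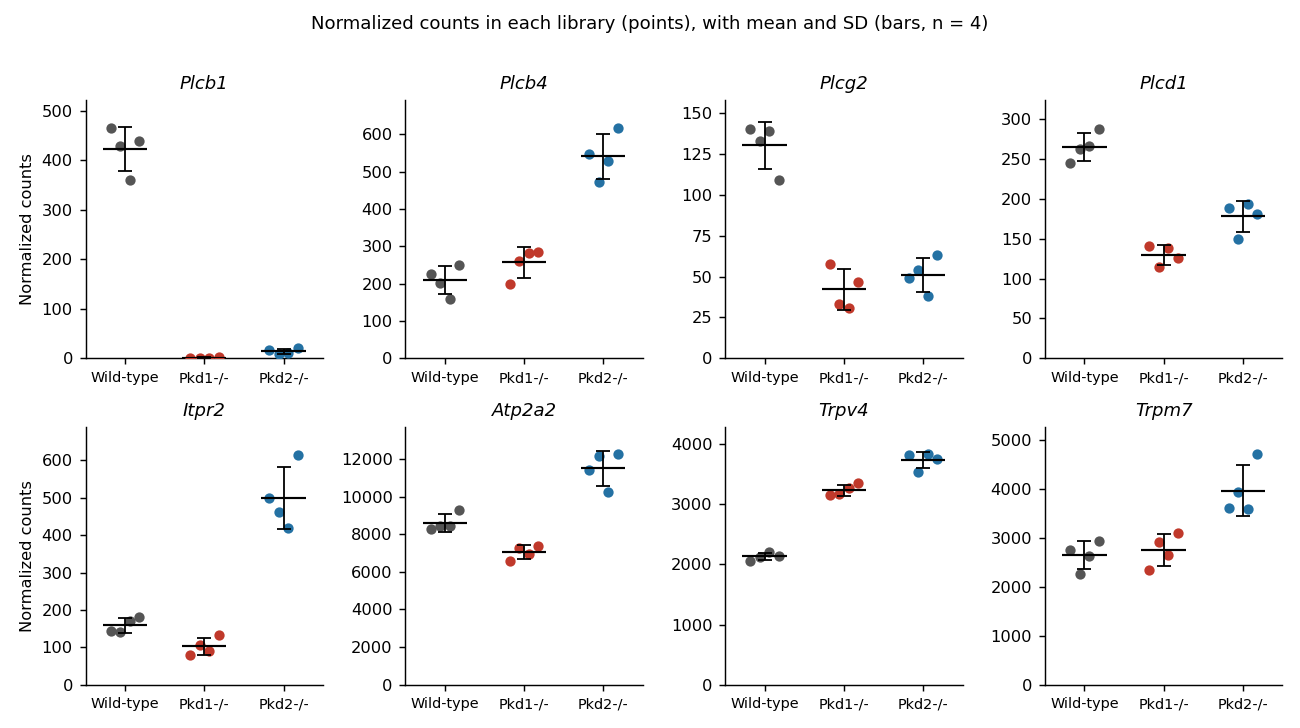
Normalized counts (vertical axes) of 8 members in each library of wild-type (grey), Pkd1-/- (red) and Pkd2-/- cells (blue), with the mean and SD of 4 libraries. Plcb1 is at 0 to 2 counts in Pkd1-/- and 9 to 20 in Pkd2-/- libraries against 360 to 464 in wild-type, and Plcb4 and Itpr2 stand highest in Pkd2-/- libraries.

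Of the IP3 receptors, the rarest one differed most. Itpr2, on chromosome 6, had 144, 141, 171 and 181 normalized counts in wild-type cells, 81, 106, 90 and 134 in Pkd1-/-, and 499, 462, 420 and 615 in Pkd2-/- libraries. The 3 genotypes did not overlap, with Pkd1-/- lowest and Pkd2-/- highest. The log2 fold change was -0.65 in Pkd1-/- (95% interval -0.96 to -0.33, adjusted p = 0.00267) and 1.64 in Pkd2-/- cells (1.32 to 1.95, adjusted p = 4.02e-08), and 2.28 between the mutants (adjusted p = 2.87e-10), the largest difference between the mutants among members after Plcb1. The medians of the 50 genes around Itpr2 were 0.02 and 0.01, and the pseudogene Gm15720 inside it had means of 16.2, 16.2 and 8.25 counts. Bhlhe41, a transcription factor gene, comes directly before Itpr2 on the chromosome among tested genes that averaged 10 or more normalized counts. It had means of 396.5, 171 and 609.5 counts and log2 fold changes of -1.22 and 0.62, with the same signs as those of Itpr2. It was picked out after its values were seen, and its part in the Itpr2 values was not tested. Itpr3, the isoform of highest level here, rose from 2402 ± 182 normalized counts in wild-type to 2905 ± 298 in Pkd1-/- (0.27, adjusted p = 0.00901) and 3040 ± 243 in Pkd2-/- cells (0.34, adjusted p = 0.000919). Itpr1 had 1480 ± 111, 1486 ± 145 and 1617 ± 181 and passed in neither comparison, with intervals of -0.16 to 0.17 and -0.04 to 0.29. Itpr2 contributed 3.00 ± 0.191% of the IP3 receptor counts per kb in wild-type cells, 1.68 ± 0.213% in Pkd1-/- and 7.31 ± 0.563% in Pkd2-/- cells. The receptors summed to 358 ± 25.9, 410 ± 42.4 and 459 ± 42.2 per kb.

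Ryanodine receptors, the release channels of muscle and neurons, were hardly measured. Ryr1 had 0 to 6 counts per library and passed in no comparison, Ryr3 had 0 to 2 and Ryr2 had 0 in every library, which allows up to 3 counts per library.

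In store-operated entry, the channel genes were lower wherever they passed against wild-type, and the sensor Stim1 was higher in Pkd1-/- cells. Orai3 had 645, 628, 711 and 662 normalized counts in wild-type cells, 545, 499, 505 and 473 in Pkd1-/-, and 521, 556, 571 and 512 in Pkd2-/- libraries. The mutants were below wild-type without overlap (-0.39, adjusted p = 0.000207, and -0.29, adjusted p = 0.00155) and did not pass against each other. Orai1, the main pore of store-operated entry, was at 476 to 492 in Pkd1-/- libraries against 596 to 668 in wild-type libraries (-0.38, adjusted p = 0.000108). The 50 genes around Orai1 on chromosome 5, over 1.58 Mb, had a median of -0.40 in the same comparison, and its part in the result was not tested. In Pkd2-/- cells Orai1 did not pass (629 to 690, 0.07, adjusted p = 0.419), and it was higher there than in Pkd1-/- cells (0.45, adjusted p = 6.97e-06). Orai2 was lower in Pkd2-/- cells, at 231 to 290 against 348 to 376 (-0.44, adjusted p = 0.000559), and did not pass in Pkd1-/- cells (-0.04, 95% interval -0.23 to 0.14). The 3 ORAI genes summed to 644 ± 28.2 normalized counts per kb in wild-type cells, 505 ± 16.2 in Pkd1-/- and 585 ± 20.1 in Pkd2-/- cells, and no library of Pkd1-/- or Pkd2-/- reached the lowest wild-type sum of 615.

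Stim1 had 1202, 1180, 1212 and 1249 normalized counts in wild-type and 1314, 1466, 1423 and 1532 in Pkd1-/- libraries, without overlap (0.24, adjusted p = 0.00202), while the 50 genes around it had a median of -0.15. In Pkd2-/- cells it had 1302, 1264, 1336 and 1366, also above wild-type in every library, yet the value did not pass (0.12, adjusted p = 0.0805). Between the mutants Stim1 did not pass (-0.12, adjusted p = 0.0752), but it did without Pkd1-/- replicate 1 (-0.162). Stim2, the more abundant sensor per kb, did not pass against wild-type in either mutant (0.18, adjusted p = 0.106, and -0.13, adjusted p = 0.188) and was lower in Pkd2-/- than in Pkd1-/- cells (-0.31, adjusted p = 0.0028). The value of Stim2 in Pkd1-/- cells contrasts with the median of -0.35 of the 50 genes around it on chromosome 5. Without wild-type replicate 1 it passed in Pkd1-/- cells (0.23), and without wild-type replicate 2 it passed in Pkd2-/- cells (-0.205).

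Among the pumps, Atp2a2 made up 99.8% of SERCA counts per kb in wild-type cells. It had 8284, 8419, 8416 and 9287 normalized counts in wild-type cells, 6572, 7292, 6968 and 7349 in Pkd1-/-, and 11386, 12177, 10237 and 12238 in Pkd2-/- libraries. The genotypes did not overlap, Pkd1-/- being lowest (-0.29, adjusted p = 0.000937) and Pkd2-/- highest (0.42, adjusted p = 1.03e-05), with a difference of 0.71 between them (adjusted p = 9.07e-09). The gene lies near Orai1 on chromosome 5, and the 50 genes around it had a median of -0.40 in Pkd1-/- and -0.13 in Pkd2-/- cells. The lower value in Pkd1-/- cells is smaller in size than that of its surroundings, and the part of the surroundings was not tested. Atp2a1 had 1 to 11 counts and passed nowhere. Atp2a3 had 4 to 11 counts in wild-type and 10 to 22 in Pkd1-/- libraries and did not pass (1.06, adjusted p = 0.0579), but passed without wild-type replicate 4 (1.28) or Pkd1-/- replicate 3 (1.23). In Pkd2-/- cells it had 5 to 18 counts and did not pass (0.81, adjusted p = 0.115), but passed without Pkd2-/- replicate 2 (1.19).

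Atp2b1, which made up 99.9% of plasma membrane pump counts per kb in wild-type cells, passed as higher in both mutants with groups that overlapped. It had 3016 ± 340 normalized counts in wild-type cells, 3630 ± 376 in Pkd1-/- (0.27, adjusted p = 0.0279) and 3552 ± 394 in Pkd2-/- cells (0.24, adjusted p = 0.0361). The calls were lost without wild-type replicate 2 or 3 in both comparisons, without wild-type replicate 1 and Pkd2-/- replicate 2 or 4 in the second, and without Pkd1-/- replicate 2 or 4 in the first, with log2 fold changes of 0.176 to 0.25. Atp2c1, the calcium and manganese pump of the Golgi, was lower in Pkd2-/- cells, at 1840 to 1947 against 1994 to 2616 normalized counts (-0.24, adjusted p = 0.00595), and did not pass in Pkd1-/- cells (0.06, adjusted p = 0.569). It overlaps Aste1 on the opposite strand. Atp2b4 had 0 to 10 counts per library and passed in no comparison, and Atp2b2 had 0 in all.

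The mitochondrial genes were slightly lower in both mutants. Micu2 had 3227, 3214, 3142 and 3019 normalized counts in wild-type, 2839, 2663, 2782 and 2750 in Pkd1-/- (-0.19, adjusted p = 0.0033), and 2565, 2552, 2715 and 2451 in Pkd2-/- libraries (-0.29, adjusted p = 3.05e-05). Both mutants were below wild-type in every library, and between them Micu2 passed only when Pkd2-/- replicate 3 was left out (-0.129, adjusted p = 0.033). Mcu, the pore, had 2052 ± 36.0 in wild-type cells, 1871 ± 74.2 in Pkd1-/- (-0.13, adjusted p = 0.0455) and 1855 ± 83.0 in Pkd2-/- cells (-0.15, adjusted p = 0.0187). The call in Pkd1-/- cells was lost when any library except Pkd1-/- replicate 1 was left out, at -0.14 to -0.11, and that in Pkd2-/- cells without wild-type replicate 3 (-0.12) or Pkd2-/- replicate 3 (-0.14).

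Of the TRP channels, Trpv4, a cation channel opened by cell swelling and heat that can assemble with TRPP2, rose in both mutants. It had 2052, 2129, 2207 and 2135 normalized counts in wild-type cells, 3142, 3170, 3262 and 3342 in Pkd1-/-, and 3818, 3534, 3823 and 3742 in Pkd2-/- libraries. The 3 genotypes did not overlap and the spread within each was small. The log2 fold change was 0.60 in Pkd1-/- (95% interval 0.51 to 0.69, adjusted p = 5.29e-09) and 0.81 in Pkd2-/- cells (0.71 to 0.90, adjusted p = 3.3e-11), and 0.21 between the mutants (adjusted p = 0.000703). The 50 genes around Trpv4 on chromosome 5 had medians of 0.24 and -0.13, so that in Pkd2-/- cells gene and surroundings went opposite ways. Trpm7, a channel fused to a kinase, was higher in Pkd2-/- cells, with 3609, 3937, 3587 and 4701 against 2757, 2259, 2626 and 2940 normalized counts (0.58, adjusted p = 6.14e-05). Its 50 neighbours on chromosome 2 had a median of 0.36 in that comparison. It did not pass in Pkd1-/- cells (0.06, adjusted p = 0.729), and the mutants differed by 0.52 (adjusted p = 0.00015).

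Trpm4, a sodium channel opened by calcium, was lower in both mutants, at 1598 ± 25.2 in Pkd1-/- (-0.18, adjusted p = 0.0101) and 1544 ± 47.2 in Pkd2-/- (-0.23, adjusted p = 0.000945) against 1818 ± 110 normalized counts in wild-type cells. It overlaps the abundant pseudogene Rpl14-ps1 on the opposite strand. Trpc1, another partner of TRPP2, had 140, 118, 119 and 119 normalized counts in wild-type, 83, 70, 84 and 80 in Pkd1-/- (-0.64, adjusted p = 0.00141), and 88, 83, 86 and 117 in Pkd2-/- libraries (-0.41, adjusted p = 0.0195). No mutant library reached a wild-type value, though 1 Pkd2-/- library came within 1 count of it. The call in Pkd2-/- cells was lost without wild-type replicate 1, Pkd2-/- replicate 2 or Pkd2-/- replicate 3, at -0.38 to -0.35. Trpc6, Trpv5 and Trpv6, the last of which are calcium entry channels of the distal nephron, and the sodium-calcium exchanger Slc8a1 had 0 counts in all 12 libraries. With Plcb2, Ryr2, Ryr3 and Atp2b2 they are the 8 members that were not tested.

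**Figure D3:**
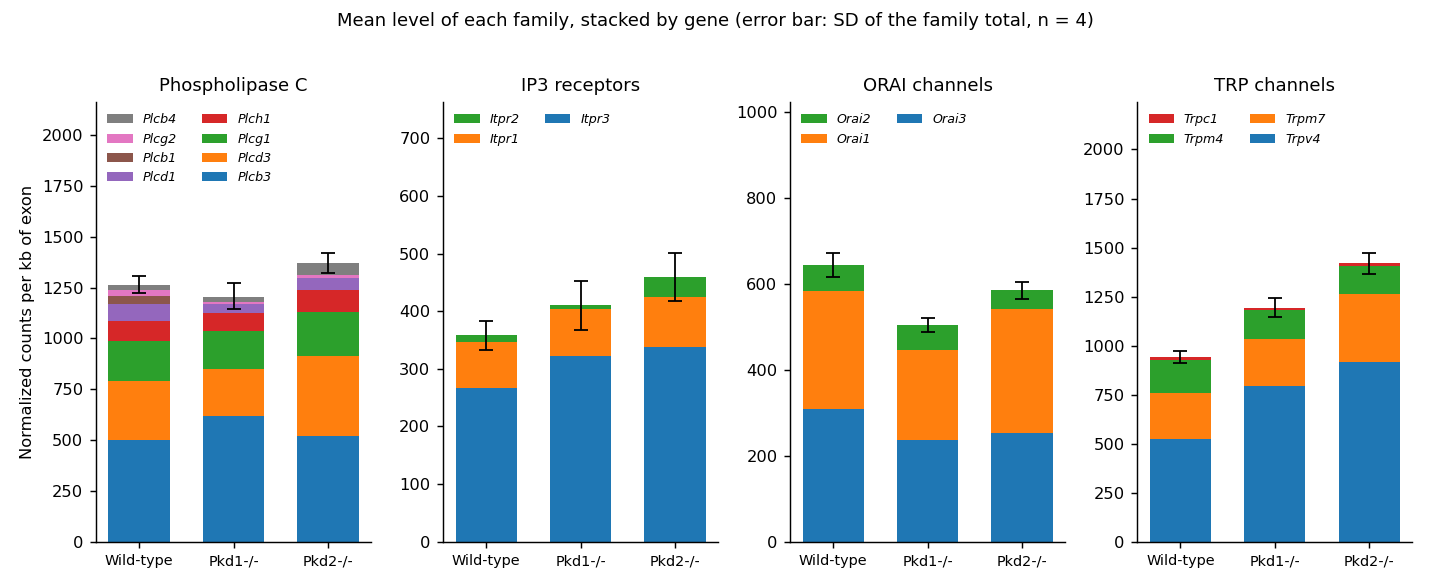
Mean normalized counts per kb of exon (vertical axes) of 4 families in wild-type, Pkd1-/- and Pkd2-/- cells, stacked by gene, with the SD of the family total over 4 libraries. Members that were hardly measured are not drawn. Trpv4 makes up most of the TRP sum, which is 940 per kb in wild-type cells, 1193 in Pkd1-/- and 1419 in Pkd2-/- cells, while the phospholipase C sums lie between 1209 and 1372.

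All phospholipases C together held 1266 ± 41.1 normalized counts per kb in wild-type cells, 1209 ± 65.3 in Pkd1-/- and 1372 ± 49.2 in Pkd2-/- cells (SD, n = 4). Plcb3 took 39.4 ± 0.702% of this sum in wild-type cells, 51.1 ± 1.23% in Pkd1-/- and 38.1 ± 1.04% in Pkd2-/- cells, and Plcd3 took 22.9 ± 1.01%, 19.3 ± 1.18% and 28.4 ± 1.06%. Plcb1 went from 3.01 ± 0.38% of the sum in wild-type cells to 0.00738 ± 0.00578% and 0.0910 ± 0.0319%. The SERCA sum was 1417 ± 76.3, 1163 ± 58.3 and 1897 ± 154 per kb, and that of plasma membrane pumps 199 ± 22.2, 239 ± 25.0 and 234 ± 25.8. These shares and sums are descriptions of a chosen list, and no test was run on them.

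Direct comparison of the mutants separated them in 16 members, with 11 higher and 5 lower in Pkd2-/- than in Pkd1-/- cells, against 21.9% and 24.3% of all genes. Of the tested members these are 34.4% and 15.6%. Plcb1, Plcb4, Itpr2 and Plch2 were differentially expressed, the first 3 higher in Pkd2-/- cells, 12.5% of those tested against 11.8%. Of the 11 tested phospholipases C, 6 were higher and 2 lower in Pkd2-/- than in Pkd1-/- cells, with a median log2 difference of 0.32. Over all tested members the median was 0.11, beside -0.01 over all genes. The median size of the difference, whatever its direction, was 0.27 among members and 0.33 among all genes. The other genes that were higher were Itpr2, Orai1, Atp2a2, Trpv4 and Trpm7, and those lower were Plcb3, Plch2, Stim2, Orai2 and Atp2c1. Of all genes that averaged 10 or more normalized counts, 57.3% passed between the mutants, and 55.6% of such members did.

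**Figure D4:**
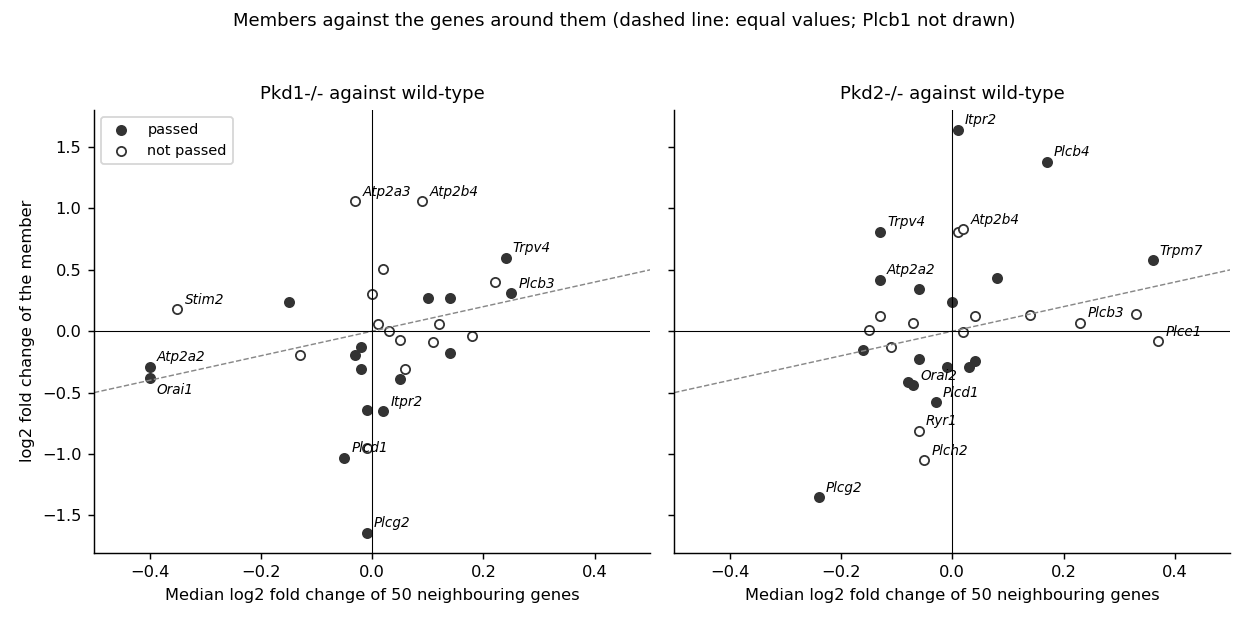
Log2 fold change of each tested member except Plcb1 (vertical axis) against the median log2 fold change of the 50 tested genes nearest to that member, 25 on each side (horizontal axis), in Pkd1-/- (left) and Pkd2-/- cells (right). Plcb1 is not drawn. Filled points passed at an adjusted p under 0.05 and the dashed line marks equal values. Orai1 and Atp2a2 lie at medians of -0.40 in Pkd1-/- cells near the line, and Plcg2, Itpr2, Plcb4 and Trpv4 lie away from it.

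Because each mutant is a single clone, members were set beside the genes around them, as in the plot of members against their neighbours. The medians of the 50 nearest tested genes ranged from -0.40 to 0.25 in Pkd1-/- and from -0.24 to 0.37 in Pkd2-/- cells. Members with the largest values lay in surroundings near 0 in Pkd1-/- cells, with medians of -0.01 around Plcg2 and -0.05 around Plcd1. In Pkd2-/- cells the median around Plcg2 was -0.24, the lowest of that range and of the same sign as its own value of -1.35. There the medians were 0.21 around Plcb1, 0.17 around Plcb4 and 0.01 around Itpr2. The part of the surroundings in these values was not tested. Orai1, Atp2a2 and Plcb3 had values of -0.38, -0.29 and 0.31 in Pkd1-/- cells where the genes around them had medians of -0.40, -0.40 and 0.25.

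The genes around the members in the pathway were described from 13 lists of 170 further genes, of which 169 were in the table and 114 were tested. In Pkd1-/- cells, 18 of them passed as higher and 24 as lower, against 13.6% and 13.5% of all genes, and 11 were differentially expressed, 9.65% of those tested against 6.24%. In Pkd2-/- cells, 33 passed as higher and 36 as lower, against 20% and 22.3%, and 17 were differentially expressed, 14.9% against 9.62%. Upstream of phospholipase C beta, Gna15, a Gq family alpha subunit, had 23, 39, 27 and 11 normalized counts in wild-type cells, 66, 89, 89 and 74 in Pkd1-/-, and 5, 2, 0 and 7 in Pkd2-/- libraries. The mutants lay on opposite sides of wild-type without overlap (1.74, adjusted p = 0.0123, and -2.78, adjusted p = 0.000143), and the first value did not pass when limma was run without a variance trend (adjusted p = 0.0574). P2ry2, a nucleotide receptor of renal epithelium that couples to Gq, had 288 ± 13.8 in wild-type cells, 159 ± 13.5 in Pkd1-/- (-0.86, adjusted p = 6.15e-07) and 710 ± 75.8 in Pkd2-/- cells (1.29, adjusted p = 1.01e-09). Of the 4 Gq family alpha subunit genes, all tested, 2 passed as higher and none as lower in Pkd1-/- cells. In Pkd2-/- cells 2 of them passed as higher and 1 as lower. Of 18 Gq-coupled receptors, 8 were tested, and 2 passed as higher and 2 as lower in Pkd1-/- and 3 and 3 in Pkd2-/- cells. All genes tested gave 13.6% and 13.5% in Pkd1-/- and 20% and 22.3% in Pkd2-/- cells.

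Downstream of calcium, Camk1d, a calmodulin-dependent kinase, had 32, 37, 30 and 41 normalized counts in wild-type cells, 16, 19, 10 and 12 in Pkd1-/-, and 431, 467, 446 and 525 in Pkd2-/- libraries. The libraries of the 3 genotypes did not overlap, and the log2 fold change was -1.27 in Pkd1-/- (adjusted p = 3.49e-05) and 3.71 in Pkd2-/- cells (adjusted p = 9.32e-12). Nfatc2, a transcription factor activated by calcineurin, rose from 334 ± 62.1 to 812 ± 81.6 in Pkd2-/- cells (1.29, adjusted p = 7.53e-09) and did not pass in Pkd1-/- cells (0.12, adjusted p = 0.428). Its relative Nfatc4 fell to 100.2 ± 5.85 from 202 ± 10.0 in Pkd2-/- cells (-1.01, adjusted p = 3.61e-07), a value just under the fold threshold without wild-type replicate 2 (-0.99), wild-type replicate 3 (-0.99) or Pkd2-/- replicate 4 (-0.97). Nfatc4 also passed as lower in Pkd1-/- cells, without overlap with wild-type (152.2 ± 16.7, -0.41, adjusted p = 0.00675). Camkk1, an upstream kinase of this family, was lower in Pkd2-/- cells (-1.09, adjusted p = 0.000228, and -0.95 without Pkd2-/- replicate 1). In Pkd1-/- cells Camkk1 passed as lower with groups that overlapped (-0.57, adjusted p = 0.0438), a call lost under 8 of 16 alternatives. Of the 24 genes of calmodulin, calcineurin and NFAT signalling, all tested, 3 were higher and 9 lower in Pkd1-/- and 4 higher and 10 lower in Pkd2-/- cells, where all genes tested gave 13.6% and 13.5%, and 20% and 22.3%.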

How the data were processed

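Total RNA of 12 libraries, 4 per genotype, was sequenced. The deposited values are normalized counts per gene, rounded to whole numbers by the authors and treated here as a score, not as raw counts. Per the study's methods and the submitters' processing notes, reads were trimmed with Trim Galore, checked with FastQC, aligned with HISAT2 to the mouse genome (mm10), counted with HTSeq and scaled with DESeq2, and no pooling of replicates was described. The strand setting of the counting is not given in the sources used here. Because of the rounding, whole reads could not be recovered for nearly all genes, so no count model was run and the depth is an estimate of 23188147 to 30322059 reads on genes.

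Values were analysed as log2(normalized count + 1) in limma 3.58.1 (R 4.3.3), with a variance trend, over the 18552 genes that averaged 1 normalized count or more. One model held all 3 genotypes, with Benjamini-Hochberg adjustment over all tested genes. Intervals are 95%. Because the libraries of a genotype are dishes of 1 line, p-values measure the spread between dishes. The pipeline was tested on simulated data. Gene lengths and positions came from GENCODE M21 (GRCm38), and tables and plots were made with Python 3.11.15, numpy 2.4.6, pandas 2.3.3 and matplotlib 3.10.9. A count of 0 allows up to 3 counts in a library, for counting error only.

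All 40 members are reported, with Pkd1 and Pkd2. Of 170 pathway genes, those differentially expressed in either mutant averaging 10 or more normalized counts were eligible to be named, which left 12. Members and lists were chosen with earlier results of these data known. The alternatives were other pseudocounts, filters and scaling, no variance trend, only the 2 genotypes compared, the replicate number as a block, and each library left out. Same-numbered libraries of different genotypes correlated at -0.0726 to 0.1997 in their deviations from the genotype means (12 pairs). Libraries with different numbers correlated at -0.1994 to 0.114 (36 pairs). The highest values, 0.1997 for wild-type with Pkd2-/- and 0.1672 for Pkd1-/- with Pkd2-/-, were between libraries numbered 4. No pairing by number is described, so the main model did not use the numbers, and a shared effect is not excluded.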

Additional observations from a re-analysis of the deposited data

Results flagged for a closer look

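Among 119 groups of 4 libraries, 6 held a library whose gap to the nearest other one took up most of the range of its group, and about 1 in 20 groups would do so by chance. Atp2a2 had 9287 normalized counts in wild-type replicate 4, where the other wild-type libraries had 8284 to 8419. Trpc1 had 140 in wild-type replicate 1 against 118 to 119, and 117 in Pkd2-/- replicate 4 against 83 to 88 in the rest of that genotype. Trpm4 had 1474 in Pkd2-/- replicate 2, below 1560 to 1575 in the others. Mcub had 51 in Pkd1-/- replicate 3, above 28 to 31, and Camkk1 had 59 in wild-type replicate 1, below 91 to 92.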

How the results depend on the processing

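The number of members that passed stayed within 1.5 times the reported one under every alternative run. Against wild-type it was 15 to 19 in Pkd1-/- cells and 16 to 19 in Pkd2-/- cells, and it was 15 to 17 between the mutants. With single libraries left out the ranges were 15 to 18, 16 to 18 and 15 to 17. The numbers differentially expressed were 2 to 4, 4 to 5 and 3 to 4, with 2 in Pkd1-/- cells without Pkd1-/- replicate 2 and 5 in Pkd2-/- cells without Pkd2-/- replicate 2 or 4. Of 507 member values recomputed in each comparison, 482, 486 and 501 kept direction and side of the threshold, and the calls of 6, 7 and 3 members changed in at least 1 setting. For 36 values of 10 members the sign differed with the test passed by neither, and the lowest adjusted p-value among those was 0.448. Of the calls that changed, Plch1 in Pkd1-/- cells passed when only the genotypes compared were fitted (-0.194, adjusted p = 0.0488), and Atp2b1 did not pass without a variance trend in Pkd1-/- (adjusted p = 0.107) or Pkd2-/- cells (adjusted p = 0.115). The cause of these changes was not tested.

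With the replicate number as a block, 17 members passed in Pkd1-/- cells, 19 in Pkd2-/- cells and 16 between the mutants. The block ended the call of Mcu in Pkd1-/- cells (adjusted p = 0.056). It gave calls to Plch1 in Pkd1-/- cells (adjusted p = 0.0293) and Plcg1 in Pkd2-/- cells (adjusted p = 0.046). What same-numbered libraries share beyond the number is not described.

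Members under about 10 normalized counts are limited by depth. With 1 clone per mutant, variation between clones was not measured.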

Other observations

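Further genes of the pathway lists that were differentially expressed in a mutant concern calcium entry, mitochondria and the secretory pathway. Cacna1g, a T-type voltage-gated calcium channel, had 610, 671, 782 and 817 normalized counts in wild-type, 756, 1041, 901 and 1026 in Pkd1-/-, and 216, 178, 199 and 263 in Pkd2-/- libraries. It was lower in Pkd2-/- cells without overlap (log2 fold change -1.75, adjusted p = 1.02e-09). In Pkd1-/- cells it passed as higher (0.37, adjusted p = 0.0307), a call that was lost without wild-type replicate 1 or 2 or Pkd1-/- replicate 2, 3 or 4, at 0.292 to 0.380. Trpv2, a TRP channel, had 11.5 ± 6.45 counts in wild-type, 22.8 ± 6.24 in Pkd1-/- (1.03, adjusted p = 0.0303) and 23.0 ± 5.48 in Pkd2-/- cells (1.05, adjusted p = 0.018). The libraries of both mutants overlapped those of wild-type cells. Without wild-type replicate 2 its values were 0.80 and 0.82 and passed in neither, and without wild-type replicate 3 they were 0.86 and 0.88, likewise not passing. The call in Pkd1-/- cells was also lost without Pkd1-/- replicate 3 (0.996) or 4 (0.877) and without a variance trend (adjusted p = 0.0569). That in Pkd2-/- cells was also lost without Pkd2-/- replicate 2 (0.964).

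Mcub, an inhibitory subunit of the mitochondrial uniporter, had 85, 103, 101 and 77 normalized counts in wild-type and 29, 31, 51 and 28 in Pkd1-/- libraries, which did not overlap (-1.40, adjusted p = 2.78e-05). Its Pkd2-/- libraries, with 64, 69, 70 and 47, were also below wild-type and passed as lower (-0.55, adjusted p = 0.0352). That call was lost under 6 of 16 alternatives. Of 10 other mitochondrial calcium genes, Mcub included, 3 were lower and none higher in Pkd1-/- cells, and 4 were lower and 2 higher in Pkd2-/- cells. Atp2c2, a secretory pathway calcium pump, had 69.8 ± 11.1 counts in wild-type and 35.0 ± 11.9 in Pkd1-/- cells (-1.03, adjusted p = 0.00198), a value of -0.94 without wild-type replicate 4, -0.81 without Pkd1-/- replicate 1 and -0.98 without Pkd1-/- replicate 4. Mrln, which encodes a SERCA-inhibiting micropeptide known from muscle, had 23, 6, 5 and 13 counts in wild-type and 2, 1, 2 and 6 in Pkd2-/- libraries, which overlapped (-1.70, adjusted p = 0.00643). Plcxd2, a phospholipase C-like gene, was lower in Pkd1-/- cells, with 130, 109, 105 and 122 against 250, 231, 233 and 262 counts (-1.06, adjusted p = 2.01e-07). Its Pkd2-/- libraries had 263, 326, 273 and 313 counts and passed as higher (0.26, adjusted p = 0.0471), a call that was lost under 8 of 16 alternatives, among them without wild-type replicate 1, 2 or 3 or Pkd2-/- replicate 2 or 4, at 0.211 to 0.275. The mutants differed by 1.33 (adjusted p = 3.49e-09). Of 10 tested genes for calcium-binding proteins of the endoplasmic reticulum, 2 were higher and none lower in Pkd1-/- cells, and 5 were higher and 2 lower in Pkd2-/- cells. Of 10 tested protein kinase C genes, 1 was higher and 5 lower in Pkd1-/- cells, and 3 were higher and 4 lower in Pkd2-/- cells. Beside these counts and those of the mitochondrial genes, 13.6% of all genes tested were higher and 13.5% lower in Pkd1-/- cells, and 20% and 22.3% in Pkd2-/- cells.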
